A study of Saccharomyces cerevisiae with 18 samples.

Results

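Colonies of the feral *Saccharomyces cerevisiae* strain BR-RF were compared with colonies of the smooth strain BR-S after 7 days of growth. The comparison rests on 3 of the 18 two-colour spotted arrays of the series, chosen by their titles. It is described over the 5543 genes named on these arrays, of which 4716 were measured in both biological replicates and tested. BR-RF is 1 subclone that regained structured colonies from BR-S during long starvation in static culture, and BR-S is itself a laboratory-domesticated derivative of the wild structured strain BR-F. Differences between BR-RF and BR-S and differences peculiar to this 1 clone cannot be told apart. Both strains grew as giant colonies on GMA, an agar medium with glycerol as carbon source and yeast extract. BR-RF colonies are structured but made of oval cells, and BR-S colonies are smooth. On each array RNA from BR-RF colonies and RNA from BR-S colonies were hybridised together, and all ratios below are BR-RF over BR-S on the log2 scale, so that 1 unit is a doubling.

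Structured yeast colonies are biofilms in which cells are held together by wall adhesins and extracellular matrix, and laboratory passage selects for smooth colonies that have lost this architecture. On a respiratory carbon source such as glycerol, cells depend on mitochondrial oxidation and gluconeogenesis, and as a colony ages its cells meet limits of nitrogen, phosphate and metals. Yeast answers these limits through separate regulons, among them the permeases and enzymes that good nitrogen sources repress, the hexose transporter family under glucose sensing, the copper and zinc transporters, and the heat shock chaperones. RNA was taken from whole colonies, so fewer cells of a type and less RNA per cell cannot be told apart in any ratio given here.

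By the deposited design, arrays 1 and 2 held the same RNA with the dyes exchanged, so their mean was used as biological replicate 1, with array 3 as replicate 2. The study's text calls all 3 arrays biological replicates. After poor and signal-free spots were left out, 8040, 8774 and 10291 named spots remained on arrays 1, 2 and 3, the lowest and the highest of these being also the extremes of the whole series. The median background-subtracted signal over background was 0.717, 0.717 and 2.04 in Cy3 and 1.92, 1.74 and 3.24 in Cy5, so that array 3 was the strongest. Across genes, which are not independent replicates, the ratios of arrays 1 and 2 correlated at r = 0.385, of arrays 1 and 3 at r = 0.759 and of arrays 2 and 3 at r = 0.543. The averaged replicate 1 and replicate 2 correlated at r = 0.757, the highest of the 6 couples and days, which began at 0.354. In both arrays 1 and 3 BR-RF carried Cy5, and array 2 had the dyes turned. For 1230 of the 4716 tested genes replicate 1 came from 1 array only. Where array 2 had no value, both replicates carried BR-RF in Cy5, so strain and dye cannot be told apart. Among the genes below this holds for *NPL3*, *GTT2*, *CCL1*, *DAL81*, *ERP1*, *SPO7* and *YOR186W*. The image of array 1 was read with other spot size limits than those of arrays 2 and 3. A dye term fitted for each gene passed in 1802 of 5204 genes over all arrays of the series. That fit took single arrays as its unit, whereas the calls below rest on biological replicates. A call lost with the dye term can thus reflect the unit as well as the dye. The part of image reading in single ratios was not tested.

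In BR-RF colonies, 343 genes were higher and 406 genes were lower than in BR-S colonies at an adjusted p under 0.05 (limma on the biological replicates, Benjamini-Hochberg over the tested genes). These were 7.27% and 8.61% of the tested genes, and 15.9% together. Genes called higher had a median log2 ratio of 0.85, and genes called lower had a median of -0.87. A difference of at least 1 log2 unit was reached by 111 of the higher and 148 of the lower genes. Of the 634 called genes with a ratio on every array, 608 had the same sign on all 3. The SE of a ratio, whose spread was shared among all couples of strains and days, had a median of 0.19 (n = 2 biological replicates). At an unadjusted p under 0.05 there were 1522 genes. With the dye term in the fit 363 genes were higher and 473 lower, including 293 of the 343 and 360 of the 406. Without array 1 the counts were 171 higher and 258 lower, and without array 3, when 1 biological replicate was left, they were 46 and 85. Of the 212 called genes that the rule for names took up, 147 did not pass without array 3, which is not repeated at each gene below.

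**Figure D1:**
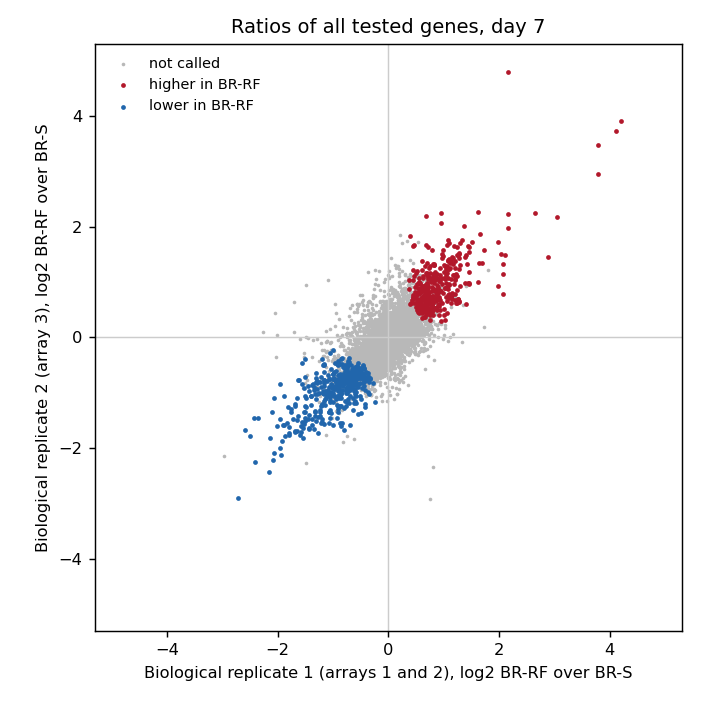
Log2 ratio of BR-RF over BR-S on day 7 in biological replicate 1 (horizontal axis, mean of arrays 1 and 2) and biological replicate 2 (vertical axis, array 3), 1 point for each tested gene. The 343 genes higher (red) and 406 genes lower (blue) in BR-RF lie along the diagonal, with a small set far out at the upper right. Calling favours genes whose replicates agree, so this position follows in part from the rule. Across all tested genes r = 0.757.

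The largest ratios belonged to the asparaginase II genes, *BSC1* and *DUS4*. The 4 *ASP3* genes encode the wall-bound asparaginase that releases ammonium from extracellular asparagine, and their copies are nearly identical and share signal. *ASP3-4* (YLR160C) had log2 ratios of 5.03, 3.36 and 3.90 on arrays 1, 2 and 3, a mean of 4.05 ± 0.42 (SE, adjusted p = 0.000587). *ASP3-1* (YLR155C) had 4.56, 3.66 and 3.73 (3.92 ± 0.28, adjusted p = 0.000145). Before loess its signal was 48677, 29037 and 37222 intensity units in BR-RF, against 1438, 2418 and 2768 in BR-S, so BR-S colonies sat at a small part of the BR-RF signal on every array. *ASP3-2* (YLR157C) and *ASP3-3* (YLR158C) had means of 3.47 ± 0.50 and 3.36 ± 0.35. *ASP3-2* was the least even of the 4, with 1.76, 2.56 and 4.79 on the arrays. Saturated spots were present on 2 arrays for *ASP3-1* and *ASP3-4* and on 1 array for *ASP3-2* and *ASP3-3*. With unsaturated spots only, *ASP3-3* had 3.03 and the other copies could not be tested, so the order among the copies is not given by these means. *BSC1* (YDL037C), similar to the flocculin gene *FLO11*, had ratios of 4.38, 3.18 and 3.48 (3.63 ± 0.40, adjusted p = 0.00069). *FLO11* itself was measured on arrays 2 and 3 at 0.17 and 0.25 and did not pass (adjusted p = 0.355). The study's RNA blots showed *FLO11* RNA recovered in BR-RF colonies and at low levels in BR-S colonies. The array ratio did not show that difference, and the reason was not tested.

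*DUS4* (YLR405W), the gene of a tRNA-modifying dihydrouridine synthase, had 3.67, 2.40 and 2.18 (2.61 ± 0.41, adjusted p = 0.00255). *MEP2* (YNL142W), the high-affinity ammonium permease that also signals in pseudohyphal growth, had 2.88, 2.41 and 2.25 (2.45 ± 0.28, adjusted p = 0.000946). *MNN9* (YPL050C), a subunit of the Golgi mannosyltransferases that extend wall mannan, had 1.83, 2.49 and 2.22 (2.19 ± 0.21, adjusted p = 0.000362). In all of these genes no array crossed 0. Of the *MNN9* spots 1 of 2 was saturated on every array, and its unsaturated spots gave 2.04. A saturated spot on at least 1 array was found in 44 of the 212 called genes taken up by the rule for names, and their ratios may be compressed. For 16 of them no test was possible on unsaturated spots only, among them *ARI1*, *DLD1*, *GID8*, *HXT7*, *ARG1*, *MET22*, *ERG6*, *SFA1* and *YGP1* below.

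Next in size were *YDL114W*, a putative short-chain dehydrogenase (2.16 ± 0.53), *SPP381* (YBR152W), a component of the spliceosomal tri-snRNP (2.07 ± 0.51), and *ARI1* (YGL157W), an NADPH-dependent aldehyde reductase (1.94 ± 0.29). *YDL114W* and *SPP381* were less firm than the genes above, with adjusted p = 0.0482 and 0.0253 on unsaturated spots only. *ARI1* was even, at 1.38, 1.85 and 2.26 on the arrays. *DAL80* (YKR034W), the GATA factor that represses genes of poor nitrogen sources, had a mean of 1.85 ± 0.44 (adjusted p = 0.0218), but its arrays gave 3.95, 0.02 and 1.72. Without array 1 its mean was 0.87 and it did not pass (adjusted p = 0.331), and with a dye term for each gene it did not pass either (adjusted p = 0.138). Nor did it pass with each array as a replicate and no dye term (adjusted p = 0.134).

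**Figure D2:**
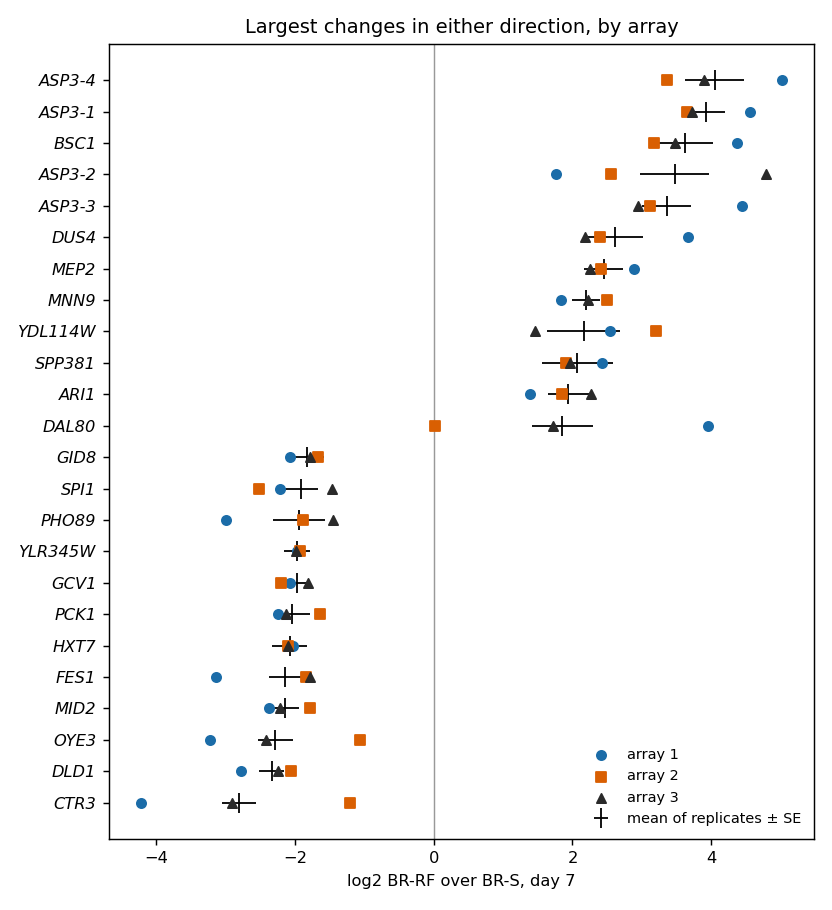
Log2 ratio of BR-RF over BR-S on day 7 (horizontal axis) on arrays 1, 2 and 3 (circle, square, triangle) for the 12 largest and 12 smallest called ratios with the same sign on all arrays, with the mean of the biological replicates and its SE (bars). *DAL80* and *ASP3-2* spread most among arrays, at 0.02 to 3.95 and 1.76 to 4.79.

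The most reduced gene in BR-RF colonies was *CTR3* (YLR411W), a high-affinity copper transporter of the plasma membrane. Its log2 ratios were -4.22, -1.21 and -2.91, with a mean of -2.81 ± 0.25 (adjusted p = 0.000291). Its signal before loess was 826, 3174 and 1305 intensity units in BR-RF, against 10267, 7477 and 9872 in BR-S. The strains did not overlap, and the array with the turned dyes gave the smallest difference. *DLD1* (YDL174C), the mitochondrial D-lactate dehydrogenase, had -2.78, -2.05 and -2.25 (-2.34 ± 0.18, adjusted p = 0.000172). *OYE3* (YPL171C), an NADPH oxidoreductase of the old yellow enzyme family, had -3.23, -1.07 and -2.42 (-2.29 ± 0.25, adjusted p = 0.000668). *MID2* (YLR332W), a sensor of cell wall stress, had -2.38, -1.78 and -2.22 (-2.15 ± 0.20, adjusted p = 0.000362).

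Among the remaining genes at the low end, 3 act in carbon metabolism or its control. *PCK1* (YKR097W), the phosphoenolpyruvate carboxykinase of gluconeogenesis, had -2.25, -1.65 and -2.13 (-2.04 ± 0.25). *GID8* (YMR135C), a subunit of the ubiquitin ligase that degrades gluconeogenic enzymes, had -2.08, -1.67 and -1.78 (-1.83 ± 0.25). *YLR345W*, similar to 6-phosphofructo-2-kinases, was the most even gene of this set, at -1.97, -1.94 and -1.99 (-1.97 ± 0.19). *FES1* (YBR101C), an exchange factor of Hsp70 (-2.14 ± 0.23), *GCV1* (YDR019C), a subunit of glycine decarboxylase (-1.98 ± 0.17), *PHO89* (YBR296C), a sodium-phosphate cotransporter (-1.94 ± 0.37), and *SPI1* (YER150W), a wall protein of stationary cells (-1.91 ± 0.24), completed the 12 with *HXT7*, described below. All were below 0 on every array, and each passed without any 1 of the 3 arrays.

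Groups of genes were described by the number of members called in each direction and their median ratio, to be read beside the 7.27% higher and 8.61% lower among all tested genes, whose median was 0. Of the 28 tested permeases, enzymes and regulators that good nitrogen sources repress, 9 were higher and 2 lower (32.1% and 7.14%), with a median of 0.46. These figures take the 4 *ASP3* copies, which amount to 1 signal, as separate members. Besides them, *MEP2* and *DAL80*, the general amino acid permease gene *GAP1* (YKR039W) was higher, at 2.15, 1.13 and 1.34 (1.49 ± 0.25, adjusted p = 0.004). The peptidase genes *LAP3* and *CPS1* had means of 0.70 each, and *LAP3* did not pass without array 1 (adjusted p = 0.0877). *DAL81*, an activator of nitrogen genes, and *DAL2*, the allantoicase of allantoin use, were lower at -0.58 and -0.64. Neither passed with a dye term (adjusted p = 0.121 and 0.146), nor with each array as a replicate and no dye term (adjusted p = 0.053 and 0.137). In wild BR-F over BR-S colonies on day 7, which share the BR-S strain, 17 of 32 tested members were higher and the median was 0.82. Over all genes of that comparison 6.08% were higher and 5.1% lower.

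Of the 13 tested genes of arginine synthesis and breakdown, 3 were higher and 1 lower, with a median of 0.08. *ARG1* (YOL058W), argininosuccinate synthetase, stood out at 1.94, 2.19 and 1.32 (1.69 ± 0.26, adjusted p = 0.00219). Among 37 genes of sulfate assimilation and methionine synthesis only 2 were higher and 2 lower. These were *MET22* (YOL064C), the bisphosphate nucleotidase of sulfate assimilation, at 2.09, 1.21 and 1.86 (1.75 ± 0.25), and *MET17* at 0.65 ± 0.17, against *STR3*, a cystathionine beta-lyase, at -1.51 ± 0.20 and *GSH1* at -0.88 ± 0.23. *MET17* and *GSH1* did not pass without array 1 (adjusted p = 0.0548 and 0.0792). Both *ARG1* and *MET22* are genes of XV left, an arm treated below.

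Hexose transport and glucose sensing was the group with the largest share of lower genes. Of 31 tested members 17 were lower and none higher, with a median of -0.98 (medians of -1.16, -0.86 and -0.89 on arrays 1, 2 and 3). *HXT7* (YDR342C), a high-affinity hexose transporter, had -2.03, -2.10 and -2.10 (-2.08 ± 0.25, adjusted p = 0.000879). *HXT6* (YDR343C), its near-identical neighbour, had -2.15, -1.88 and -1.60 (-1.81 ± 0.21). *HXT3* (YDR345C), of low affinity, had -2.07, -1.54 and -1.76 (-1.78 ± 0.19). The 3 genes thus lay at about the same ratio, and the likeness of *HXT6* and *HXT7* means that they cannot be read as separate measurements. Shared signal among the other *HXT* genes was not tested, so the 17 lower members are not to be counted as separate measurements. *HXT1*, *HXT4*, *HXT10*, *HXT11* and *HXT12* had means of -1.69, -1.38, -1.72, -1.64 and -1.53, the galactose permease gene *GAL2* had -1.34, and *HXT8*, *HXT9*, *HXT13*, *HXT15* and *HXT17* had -0.78 to -1.17. A spot of *HXT10* was saturated on every array. The lower members were not only transporters: *MTH1* (YDR277C) and *STD1* (YOR047C), which relay the glucose signal to the *HXT* repressor, had -1.77 ± 0.28 and -1.10 ± 0.18. *MIG1* (YGL035C), the glucose repressor, had -0.76 ± 0.15. On day 4, 5 of 30 members were lower with a median of -0.64, against 1.82% of all genes. Between BR-F and BR-S on day 7, 6 of 31 were lower in BR-F with a median of -0.60, against 5.1% of all genes.

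Genes of maltose and isomaltose use were lower as well, 6 of 15 with a median of -0.90. *MAL12* (YGR292W), maltase, had -1.41, -1.34 and -1.47. *IMA4* (YJL221C), an isomaltase, had -1.35, -0.96 and -1.23 (-1.19 ± 0.21, adjusted p = 0.00503). *MPH2* (YDL247W), an alpha-glucoside permease, had -0.43, -0.94 and -1.58 and did not pass with a dye term (adjusted p = 0.197). Nor did it pass with each array as a replicate and no dye term (adjusted p = 0.111). *IMA2*, *IMA3* and the regulator gene *ZNF1* (YFL052W) had -1.02, -1.06 and -0.90, and *ZNF1* did not pass without array 1 (adjusted p = 0.0782). The members share sequence, so that a signal may come from several of them. Between BR-F and BR-S on day 7 the group stood on the other side of 0, with 7 members higher in BR-F, 1 lower and a median of 1.07.

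Central carbon metabolism was read in 3 groups. Of 41 genes of the glyoxylate, gluconeogenic and citrate pathways 2 were higher and 4 lower. The lower ones were *DLD1*, *PCK1*, the peroxisomal citrate synthase gene *CIT2* (YCR005C, at -1.91, -1.41 and -1.70, mean -1.68 ± 0.34) and *HAP4* (YKL109W), the activator of respiratory genes (-1.24, -1.84 and -1.81, mean -1.67 ± 0.20, adjusted p = 0.000797). *ICL1* and *MLS1*, which encode the enzymes particular to the glyoxylate cycle, had -0.14 ± 0.20 and 0.38 ± 0.25 and did not pass (adjusted p = 0.668 and 0.314). Of 45 respiratory chain and ATP synthase genes 8 were lower and none higher (17.8% lower). The largest were the cytochrome c oxidase subunit genes *COX6* (-1.09 ± 0.19) and *COX8* (-0.94 ± 0.14), followed by *ATP3* (-0.83 ± 0.23), and the group median was only -0.11. Among 43 glycolytic and fermentative genes 5 were higher, led by the minor pyruvate decarboxylase gene *PDC6* (1.44 ± 0.35), the glycerol phosphate phosphatase gene *GPP1* (1.18 ± 0.20) and the phosphoglycerate mutase gene *GPM1* (1.16 ± 0.27), and 4 were lower, led by *SFA1* (-1.30 ± 0.23). *GPM1* did not pass without array 1 (adjusted p = 0.0607), and *PDC6* not after median centring in place of loess (adjusted p = 0.0526).

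Peroxisomal fatty acid oxidation had 8 higher and 2 lower of 48 genes. *PEX11* (YOL147C), a peroxisome division factor, had 1.71, 1.73 and 1.58 (1.65 ± 0.21, adjusted p = 0.000946). *POX1* (YGL205W), the acyl-CoA oxidase of the first step, had 1.18, 0.97 and 1.40 (1.24 ± 0.16, adjusted p = 0.000946). *ECI1* (YLR284C), an enoyl-CoA isomerase, had 1.62, 0.34 and 1.47 (1.23 ± 0.20), and *POT1* (YIL160C), the thiolase of the last step, had 1.18, 1.03 and 1.26 (1.18 ± 0.22). *PEX11* and *POT1* lie on XV left and IX left, treated below. Of the 4 members on chromosome IX or XV left 3 were higher, with a median of 1.11, and of the 44 elsewhere 5 were higher and 2 lower, with a median of 0.03. The carnitine-related genes *CRC1* and *YAT2* were lower at -0.67 ± 0.15 and -0.71 ± 0.18.

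Ergosterol synthesis, the fungal sterol pathway, had 9 higher and no lower of 31 genes (29.0%), with a median of 0.24. *ERG3* (YLR056W), C-5 sterol desaturase, had 1.70, 1.21 and 1.54 (1.496 ± 0.17, adjusted p = 0.000785). *ERG5* (YMR015C), the C-22 desaturase, had 1.34, 0.05 and 1.34 (1.02 ± 0.19), and *ERG6* (YML008C), the C-24 methyltransferase, had 1.01, 0.21 and 1.23 (0.92 ± 0.26). On array 2 both were near 0, and neither passed without array 1 (adjusted p = 0.118 and 0.147). *ERG11* (YHR007C), the lanosterol demethylase, had 0.90, 0.65 and 1.01 (0.90 ± 0.22, adjusted p = 0.0228), and *CYB5*, *ERG9*, *ERG2*, *ERG28* and *ERG27* had 0.68 to 0.82. On day 4, when 2.97% of all tested genes were higher and 1.82% lower, no member was higher and 1 was lower among 32. The group median was then -0.05. Sphingolipid and ceramide genes went down more than up, with 6 lower and 1 higher of 28. *SUR1* (YPL057C), a subunit of the mannosyl inositol phosphorylceramide synthase, had -1.67, -1.22 and -1.64 (-1.54 ± 0.27), and its regulatory partner *CSG2* (YBR036C) had -1.34, -1.16 and -1.01 (-1.13 ± 0.18). *ELO3* (YLR372W), which elongates very long fatty acids for ceramide, had -1.46, -0.68 and -1.32 (-1.19 ± 0.21).

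Among the metal groups copper held the highest share of lower genes (50.0%). Of 12 copper genes 6 were lower and 1 higher, with a median of -0.68. Besides *CTR3*, *CTR1* (YPR124W), the other high-affinity copper transporter, had -1.98, -1.26 and -0.78 (-1.20 ± 0.22, adjusted p = 0.00589). The metallothionein gene *CUP1-1* (YHR053C) had -1.01, -2.38 and -1.69 (-1.69 ± 0.18), and *CUP1-2*, its identical repeat, had -1.25. *BSD2* (YBR290W), which sends metal transporters to the vacuole, had -2.15, -1.16 and -1.48 (-1.57 ± 0.24). The only higher member, the repressor gene *CUP9* (0.82 ± 0.19), did not pass without array 1 (adjusted p = 0.265). Of 18 zinc genes 4 were lower, among them the high- and low-affinity transporter genes *ZRT1* (YGL255W, -2.55, -1.37 and -0.84, mean -1.40 ± 0.28) and *ZRT2* (YLR130C, -1.33 ± 0.24) and the zinc-regulated wall protein gene *ZPS1* (YOL154W, -1.49 ± 0.19). The group median was -0.03. Of 37 iron genes 3 were higher and 4 lower, near the share among all genes. Of 25 phosphate genes 2 were higher and 4 lower, including *PHO89* and *PHO87* (-1.15 ± 0.34, adjusted p = 0.0808 without array 1), while *PHO84* at -0.62 ± 0.22 did not pass (adjusted p = 0.0774).

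**Figure D3:**
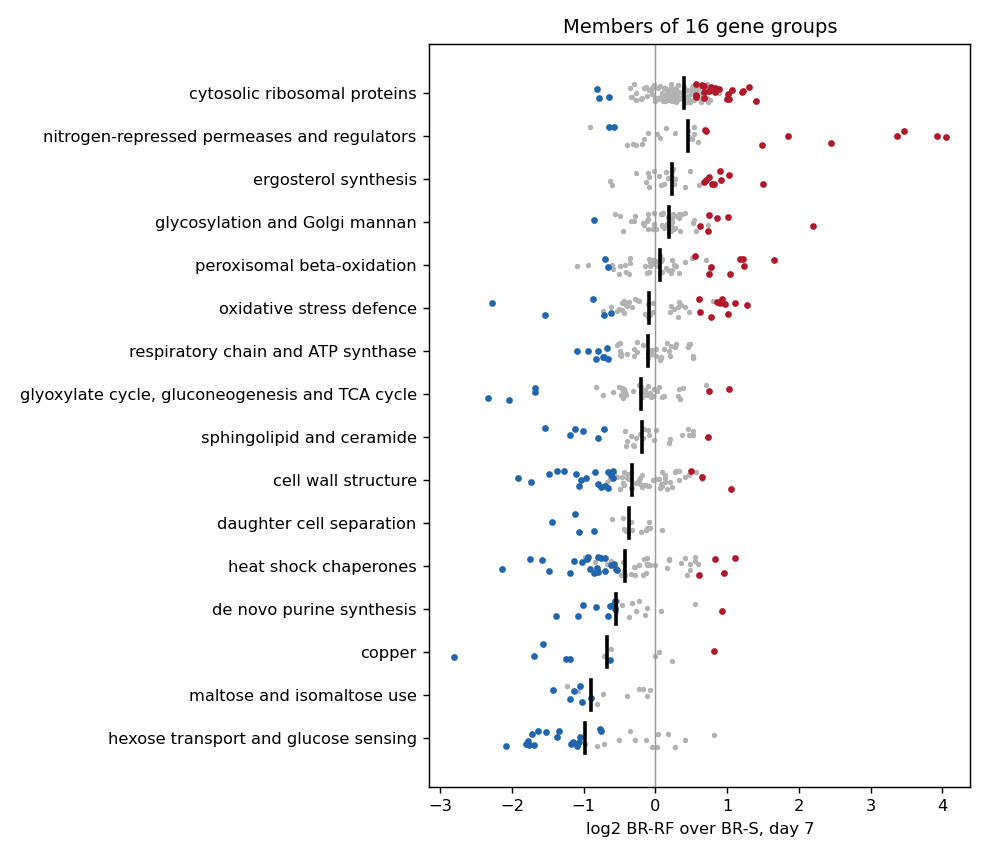
Log2 ratio of BR-RF over BR-S on day 7 (horizontal axis) for the tested members of 16 gene groups, 1 point for each gene (red called higher, blue called lower, grey not called), with the group median as a bar. Medians range between -0.98 for hexose transport and glucose sensing and 0.46 for the nitrogen-repressed genes, and most groups hold both red and blue points.

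Of 70 tested cell wall genes 18 were lower and 3 higher (25.7% and 4.29%), with a median of -0.33. After *SPI1*, the most reduced were *YGP1* (YNL160W), a secreted glycoprotein of nutrient-limited cells, at -1.38, -2.40 and -1.59 (-1.74 ± 0.33), and *ZPS1*. The GPI wall protein genes *CCW14* and *SED1* had -1.37 ± 0.14 and -1.11 ± 0.27, and the abundant wall mannoprotein gene *CCW12* (YLR110C) had -0.73, -0.95 and -0.86 (-0.85 ± 0.18). *CHS1*, the chitin synthase of septum repair, was measured on arrays 2 and 3 at -1.25 and -1.30. Higher members were *TIR4* (1.05 ± 0.28), a mannoprotein of anaerobic cells, *LDO16* (0.65 ± 0.20) and *TRS65* (0.50 ± 0.14). After median centring none of the 3 passed (adjusted p = 0.0671, 0.0756 and 0.147). Without array 1 *TIR4* and *LDO16* did not pass (adjusted p = 0.0532 and 0.316), and *LDO16* did not pass with a dye term either (adjusted p = 0.0606). With each array as a replicate and no dye term *LDO16* had an adjusted p of 0.0647. The flocculin gene *FLO9* (YAL063C) was lower, at -1.93, -1.20 and -0.84 (-1.20 ± 0.29, adjusted p = 0.0213).

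Genes of daughter cell separation were lower in 4 of 16 and higher in none, with a median of -0.37. *DSE1* (YER124C), expressed in daughter cells, had -1.72, -1.34 and -1.34 on the arrays. *CTS1* (YLR286C), the chitinase that splits the septum, had -0.94, -1.75 and -0.90, and *KIC1* (YHR102W), a kinase of the RAM network, had -1.15, -1.30 and -0.90 (-1.06 ± 0.17). In the cell wall integrity pathway 5 of 27 were lower and none higher. These were *MID2*, the related sensor gene *MTL1* (-0.81), the transcription factor genes *USV1* (YPL230W, -1.04, -1.35 and -1.47, mean -1.34 ± 0.14) and *RLM1* (YPL089C, -1.14, -1.03 and -0.90, mean -0.99 ± 0.18), and the kinase gene *KNS1* (-0.71).

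Protein glycosylation had 6 higher and 1 lower of 55 genes (10.9% and 1.82%, against 7.27% and 8.61% among all), with a median of 0.18. Besides *MNN9* these were *CWH41* (YGL027C), glucosidase I of the endoplasmic reticulum, at 1.48, 0.27 and 1.15, the oligosaccharyltransferase gene *STT3* at 0.92, 0.65 and 0.92, *ALG6*, *KTR3* and *MNT3*. *CWH41* and *STT3* did not pass without array 1 (adjusted p = 0.104 and 0.0523). The lower member was the mannosyltransferase gene *KTR4*, at -1.46, -0.45 and -0.76, which also did not pass without array 1 (adjusted p = 0.0519). Of 25 GPI anchor genes 1 was higher and 1 lower. The lower was *ERP1*, whose BR-RF signal was not well above background on either array that measured it, so only its direction is given.

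Heat shock chaperones were lower in 21 and higher in 4 of 59 genes (35.6% and 6.78%), with a median of -0.42. *FES1* was followed by *APJ1* (YNL077W), a Hsp40, at -2.45, -1.35 and -1.59 (-1.74 ± 0.23), and *SSE1* (YPL106C), a Hsp110 exchange factor, at -1.75, -1.40 and -1.59 (-1.59 ± 0.20). *HSP78* (YDR258C), the mitochondrial disaggregase, had -1.33, -1.69 and -1.45 (-1.48 ± 0.16), and *HSP104* (YLL026W), its cytosolic relative, had -1.39, -0.91 and -1.11 (-1.13 ± 0.17). Mitochondrial *HSP60*, *SSC1*, *MGE1*, *HSP10* and *MDJ1* had -0.55 to -1.02, and *HSP60* did not pass without array 1 (adjusted p = 0.0741). The small heat shock protein genes *HSP26* and *HSP12* had -0.62 ± 0.34 and -0.12 ± 0.46 and did not pass (adjusted p = 0.231 and 0.888). Of the 4 higher members *SNL1* (1.11 ± 0.16) and *OPI10* (0.96 ± 0.16) lie on chromosomes IX and XV. On day 4 the group had 10 lower of 60, against 1.82% lower among all genes, and a median of -0.25.

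Oxidative stress defence was divided, with 10 higher and 5 lower of 48 genes and a median of -0.09. Higher were the glutathione transferase genes *GTT1* (YIR038C, 1.28 ± 0.32) and *GTT2* (1.02 ± 0.23), the peroxiredoxin genes *TSA2* (YDR453C, at 1.43, 0.69 and 1.15, mean 1.11 ± 0.15) and *TSA1* (YML028W, at 1.57, 0.98 and 0.65, mean 0.96 ± 0.19), and catalase genes *CTT1* and *CTA1*. *GTT1* and *GTT2* did not pass after median centring (adjusted p = 0.18 and 0.0781). *GTT2*, which had no value on array 2, did not pass with a dye term either (adjusted p = 0.0598). *CTT1* and *CTA1* had 0.04 and 0.08 on array 2 and did not pass without array 1 (adjusted p = 0.198 and 0.193). Lower were *OYE3* and *GPX1* (YKL026C), a glutathione peroxidase, at -1.53, -1.33 and -1.65 (-1.54 ± 0.14, adjusted p = 0.000291).

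The cytosolic ribosomal protein genes were higher in 21 and lower in 3 of 129 (16.3% and 2.33%), with a median of 0.39 and medians of 0.42, 0.27 and 0.36 on arrays 1, 2 and 3. *RPP2A* (YOL039W), a stalk protein, had 0.96, 1.23 and 1.71 (1.40 ± 0.22). *RPS15* (YOL040C) had 0.99, 1.29 and 1.46 (1.30 ± 0.22), and *RPL22A* (YLR061W) had 1.60, 1.31 and 0.99 (1.22 ± 0.20). Of the 9 members on chromosome IX or the left arm of XV, 7 were higher, and of the 120 elsewhere 14 were higher and 3 lower with a median of 0.33. The genes reduced were *RPL35B* (YDL136W), *RPS30B* (YOR182C) and *RPL6B* (YLR448W), at -0.82, -0.78 and -0.65, and *RPL35B* did not pass without array 1 (adjusted p = 0.0835) nor *RPS30B* with loess in print blocks (adjusted p = 0.0561). Many ribosomal proteins are encoded by paralog pairs whose signals cannot be separated. Between BR-F and BR-S on day 7, 1 member was higher and 52 were lower in BR-F, and the median was -0.58.

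Ribosome biogenesis (4 higher and 6 lower of 116) and mitochondrial ribosomal proteins (2 and 4 of 67) had fewer calls, and their medians were -0.004 and -0.15. Among 41 genes of RNA polymerase II and general transcription 9 were lower and 1 higher, with *SPT15* (YER148W), the TATA-binding protein, at -1.06, -2.23 and -1.09 (-1.37 ± 0.27) and *CCL1*, a cyclin of TFIIH, at -1.29 ± 0.18. De novo purine synthesis had 9 lower and 1 higher of 22, with a median of -0.55 and array medians of -0.58, -0.18 and -0.51. *ADE13* (YLR359W), adenylosuccinate lyase, had -1.87, -0.57 and -1.54 (-1.38 ± 0.18), *ADE8* had -1.01 ± 0.24 and *ADE1* -0.83. In glycine cleavage and one-carbon metabolism 5 of 22 were lower and 2 higher, with *GCV3* (YAL044C) and the cytosolic serine hydroxymethyltransferase gene *SHM2* at -1.60 ± 0.21 and -1.04 ± 0.21 beside *GCV1*.

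Of 22 members of the Ras, cAMP and protein kinase A pathway 6 were lower and 2 higher, led by *RGS2* (-1.12 ± 0.16), a regulator of the Gpa2 G protein. *BCY1*, the inhibitory subunit of protein kinase A, was higher at 0.98 ± 0.30, and it did not pass without array 2 (adjusted p = 0.0543). Filamentous growth regulators were lower in 6 and higher in 1 of 36, *MEP2* being the higher one. *DIA1* (YMR316W), *STE7* (YDL159W), the MAP kinase kinase of filamentation, and *RIM101* (YHL027W), the pH-response factor, had -1.42 ± 0.19, -1.21 ± 0.21 and -1.07 ± 0.23, and *RIM101* did not pass without array 1 (adjusted p = 0.0806). TOR complex genes were lower in 2 and higher in 1 of 29, shares below those among all genes, with *LST8* at -1.22, -0.48 and -1.10.

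Markers of other cell states were also read. Of 21 markers of sporulating cells 10 were tested, and their ratios lay between -0.72 and 0.56 with none higher and 1 lower (*SPO11*, -0.72). Of the markers of MATa, MATalpha and haploid cells, 4, 2 and 4 were tested and none was called. Members of the subtelomeric COS family gave no call among 11, and the PAU family 2 lower among 22. Between BR-F and BR-S on day 7 these families had 5 and 6 members higher in BR-F, with medians of 0.65 and 0.56, while in BR-RF over BR-S the medians were 0.12 and -0.11.

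Of the genes that the study itself named for structured and smooth colonies, 39 were tested, of which 13 were higher and 12 lower. The study chose this list on the same samples, so the counts are not independent evidence. The higher genes without values above were *RAD10* (YML095C), of DNA repair, at 1.01, 0.27 and 0.72 (0.68 ± 0.19), and *SOD2* (YHR008C), the mitochondrial superoxide dismutase, at 0.64, 0.66 and 0.57 (0.61 ± 0.18). Neither passed without array 1 (adjusted p = 0.153 and 0.0618). The lower genes included *TOS8* (YGL096W) at -1.35, -0.89 and -1.07, *TOD6* (YBL054W) at -0.70, -0.98 and -0.96, *IOC4* (YMR044W) at -1.60, 0.07 and -0.81 and *TMA23* (YMR269W) at -1.18, -0.07 and -0.86. In *IOC4* and *TMA23* array 2 was near 0, and neither passed without array 1 (adjusted p = 0.316 and 0.234) or with a dye term (adjusted p = 0.0804 and 0.0897). With each array as a replicate and no dye term *IOC4* did not pass either (adjusted p = 0.0598). Among those not called, *HHT1* had -1.04 ± 0.34, *YBL036C* 0.74 ± 0.25 and *PER1* 0.62 ± 0.22 (adjusted p = 0.0596, 0.0684 and 0.0833). The filamentation regulator genes *TEC1* and *SFG1* had 0.50 ± 0.24 and 0.12 ± 0.15, and *DDR48* and *BST1* had 0.51 ± 0.22 and 0.34 ± 0.19, none of which passed.

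Calls were unevenly spread over the genome. On the left arm of chromosome XV, 63 of 140 tested genes were higher and 6 lower, and the arm's median exceeded that of all other genes by 0.85, 0.40 and 0.67 on arrays 1, 2 and 3 (0.56 for the mean of replicates). On the left arm of chromosome IX, 35 of 154 were higher and 5 lower with shifts of 0.50, 0.23 and 0.31 (0.38 for the mean), and on its right arm 10 of 38 were higher and 2 lower (0.28). On the other 29 of 32 arms, 0 to 11.1% of genes were higher and the shift lay between -0.59 and 0.11. Chromosome IX and the left arm of XV held 332 of the tested genes (7.04%) but 108 of the 343 higher genes (31.5%). Without them 235 genes were higher and 393 lower among 4384. Between BR-F and BR-S on day 7 the shifts of XV left and IX left were -0.02 and 0.08.

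Spots were printed in the order of the genome, so chromosome and print row go together. Within the same print row, spots of XV left had medians of 0.84, 0.39 and 0.65 on arrays 1, 2 and 3, against 0.02, -0.02 and -0.03 for the other spots of that row. For chromosome IX these were 0.50, 0.25 and 0.31, against 0.15, 0.18 and 0.11. Array 1 alone also had low medians in the first 3 print rows (-0.37, -0.51 and -0.17), which hold chromosome I to the left arm of IV. The shift of the right arm of chromosome I was -1.25, -0.20 and -0.30 on arrays 1, 2 and 3 and that of its left arm -0.82, 0.17 and -0.10, so these arms were low mainly on array 1. Of 682 tested genes on these arms 62 were lower (9.09%) and 29 higher.

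Along XV left the 3 bins of 100 kb from the telomere inwards had medians of 0.55, 0.69 and 0.55, and the bin that follows had 0.09. The largest genes of these bins were *PEX11*, *MPD2* (YOL088C), a protein disulfide isomerase, at 1.62, 0.84 and 1.64 (1.43 ± 0.17), *MET22* and, in the last bin, the histone variant gene *HTZ1* at 0.92, 1.19 and 0.91 (0.98 ± 0.18). On chromosome IX the 5 bins had medians of 0.31 to 0.38. Their largest genes were *YIL165C*, a nitrilase-like gene, at 2.43, 1.78 and 1.49 (1.80 ± 0.26), *AVT7* (YIL088C), a vacuolar amino acid transporter, at 1.56, 1.00 and 1.51 (1.40 ± 0.25), *EFM4* (YIL064W), a lysine methyltransferase, at 1.46, 1.42 and 0.99 (1.22 ± 0.15), *SNL1* and *GTT1*. A further 6 genes of chromosome XV were listed because the study had examined their copy number. By quantitative PCR on genomic DNA, it found that relative copy number in BR-RF against BR-S differed significantly between the left-arm and the right-arm genes. The study read this as partial duplication of the genome, and copy number was not tested here. *PRE6* (YOL038W) and *MAM3* (YOL060C) on the left arm were higher, at 1.17 ± 0.22 and 0.86 ± 0.19. *MAM3* did not pass without array 1 (adjusted p = 0.054). *SHR5* on the same arm had -0.87, 1.53 and 0.70 and did not pass (adjusted p = 0.208). *TOA1*, *CLP1* and *MPD1* on the right arm had -0.37 ± 0.21, 0.33 ± 0.21 and 0.07 ± 0.24, and none passed.

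On the right arm of chromosome XII, 23 of 333 genes were higher and 47 lower. The lower genes were dense between YLR337C and YLR430W, where the pair of 100 kb bins had 15 of 35 and 8 of 27 genes lower, against none and 1 higher, and medians of -0.51 and -0.43. The stretch was 0.49 below the other genes, and on array 2 its second bin was at -0.05, against -0.59 and -0.43 on arrays 1 and 3. The 1 gene called higher there was *DUS4*, within this run of reduced genes that also holds *CTR3*, *ADE13*, *ELO3* and *YLR345W*. The 4 *ASP3* genes lie elsewhere on the same arm.

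**Figure D4:**
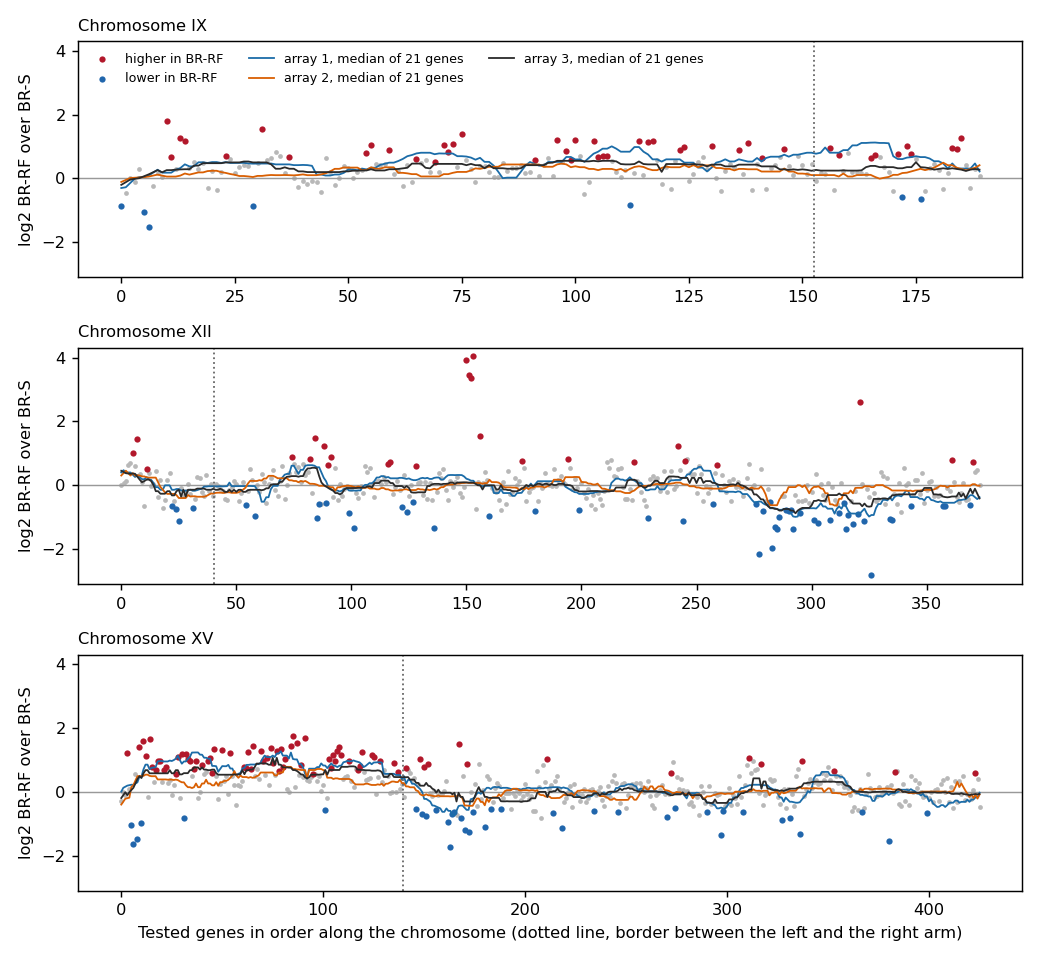
Log2 ratio of BR-RF over BR-S on day 7 (vertical axis) of tested genes in their order along chromosomes IX, XII and XV (red called higher, blue called lower, grey not called), with the running median of 21 genes on each array as lines. The lines of all 3 arrays lie above 0 over XV left, where the shift is 0.56, and array 2 lies nearest to 0 over the low stretch of XII right.

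On day 4, 134 genes were higher and 82 lower in BR-RF colonies among 4506 tested (2.97% and 1.82%). These came from younger colonies of the same strains. Of the 343 genes higher on day 7, 313 were tested on day 4, with a median of 0.31, 81 higher and 3 lower. Of the 406 lower genes, 389 were tested on day 4, with a median of -0.31, 1 higher and 56 lower. The shift of XV left was 0.71 on day 4, against 0.56 on day 7, and that of IX left 0.40, against 0.38.

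The ratio itself differed between the days in 15 of 4262 genes (0.352%), being higher on day 7 in 8 and lower in 7, and 662 genes differed at an unadjusted p under 0.05 (limma contrast of day 7 minus day 4). Most of these 15 calls depended on the fit. After median centring 2 of the 15 passed, and with the replicate block also 2, *ERG3* and *SHH4* in both. Without array 1, 1 of the 12 that could be tested passed (*ERG3*), and without array 3 none did. *CTR3* had -0.71 on day 4 and -2.81 on day 7 (difference -2.10, adjusted p = 0.04). *GCV1* and *GCV3* had -0.34 and 0.15 on day 4 and -1.98 and -1.60 on day 7, and both differences passed in the full fit (adjusted p = 0.04 each). Neither of these glycine decarboxylase genes passed on day 4. *NPL3* (YDR432W), an mRNA export factor, and *HAC1* (YFL031W), the factor of the unfolded protein response, had -0.05 and 0.03 on day 4 and -2.13 and -1.51 on day 7. *ERG3* had -0.70 on day 4 and 1.496 on day 7 (difference 2.19, adjusted p = 0.0068), and so stood on opposite sides of 0 on these days. *POX1* had -0.15 and 1.24, and *SHH4* (YLR164W), a paralog of a succinate dehydrogenase subunit, had -0.77 and 1.54. *RNR4*, a ribonucleotide reductase subunit, had -0.69 and 1.19. The dyes of arrays 1, 2 and 3 were all exchanged between days 4 and 7. Where array 2 had no value on day 7, as in *NPL3*, *SPO7* and *YOR186W*, the exchange enters replicate 1 as well as array 3. With a dye term for each gene 9 of the 15 differences passed, among them *ERG3*, *SHH4*, *GCV1* and *RNR4*. *CTR3*, *NPL3*, *GCV3*, *HAC1*, *SPO7* and *POX1* did not (adjusted p = 0.257, 0.0568, 0.069, 0.142, 0.115 and 0.0552), the difference of *CTR3* being then -1.77. The sign of all 15 was the same in that fit. With each array as a replicate and no dye term 13 of the 15 passed, and *CTR3* and *HAC1* did not (adjusted p = 0.112 and 0.131).

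**Figure D5:**
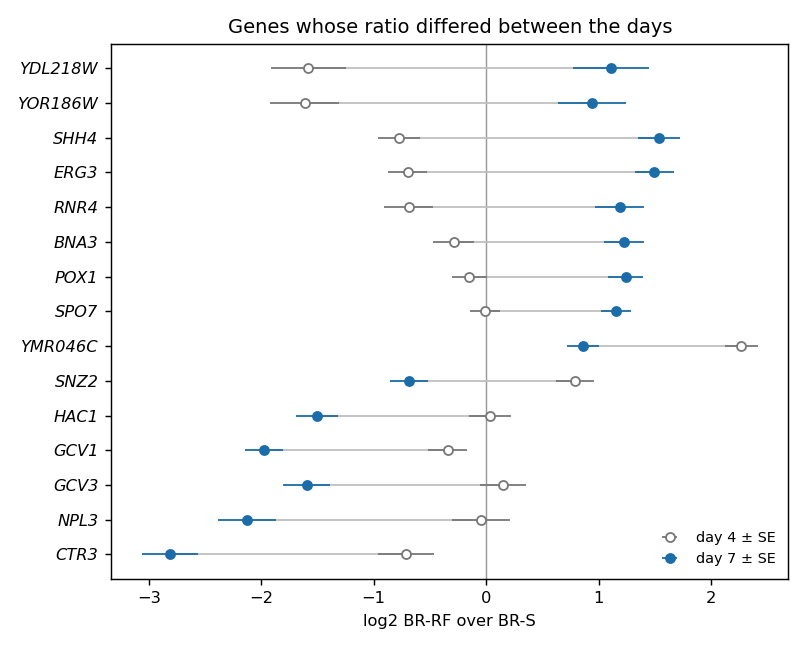
Log2 ratio of BR-RF over BR-S (horizontal axis, mean ± SE of 2 biological replicates) on day 4 (open) and day 7 (filled) for the 15 genes whose ratio differed between the days, of which 9 passed with a dye term. *CTR3* moved between -0.71 on day 4 and -2.81 on day 7, and *YMR046C* was above 0 on both days.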

How the data were processed

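Colonies of strain couples were compared on spotted two-colour arrays. The authors deposited, for each array, background-subtracted median intensity values of Cy3 and Cy5 from TIGR Spotfinder, per the file headers without further normalization. They also deposited a value table of log2 ratios after LOWESS in MIDAS, used only as an alternative. The log2 ratio of each spot was normalised by loess (span 0.3) within its array, poor spots and spots with no positive signal being left out, and a gene's value was the mean of its spots. The mean of arrays 1 and 2 served as biological replicate 1 and array 3 as replicate 2. The 12 biological ratios of all couples and days were fitted with lmFit and eBayes in limma 3.58.1 (R 4.3.3; prior degrees of freedom 4.64, prior SD 0.268), two-sided, with Benjamini-Hochberg adjustment over genes measured in both replicates. With 2 biological replicates the pooled spread sets the p-values, and precision is limited by the small number of arrays. A dye term passed in 1802 of 5204 genes, so the dye fit was among the alternatives. It was run on the 18 single arrays, with arrays of 1 biological replicate treated as a correlated block. The fit was checked on simulated data. Tables and figures used Python 3.11.15, pandas 2.3.3 and matplotlib 3.10.9. Gene names came from the R64 RefSeq annotation, which lacked 5 of 5543 genes; no build is given for the arrays in the sources used here. No test was run on gene groups or arms. The members and lists were chosen with earlier results of these data known, and a list of Ty elements was dropped because its name pattern took other genes.

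Genes were named by rule: the 12 largest and 12 smallest called ratios with the same sign on all 3 arrays, up to 3 called genes at each end of each list, all genes of the study's lists, the largest change in each 100 kb bin of chromosomes IX, XII right and XV left, and up to 10 day differences in each direction. Other genes in the text were chosen after their values were seen.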

Additional observations from a re-analysis of the deposited data

Results flagged for a closer look

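The ratio of BR-RF over BR-S differed between day 7 and day 4 in 15 genes by the limma contrast, of which 9 passed with a dye term for each gene and 2 after median centring. It was lower on day 7 by a day 7 minus day 4 difference of -2.10 in *CTR3*, -2.08 in *NPL3*, -1.75 in *GCV3*, -1.64 in *GCV1*, -1.54 in *HAC1*, -1.48 in *SNZ2* and -1.41 in *YMR046C*. It was higher on day 7 by 1.17 in *SPO7*, 1.39 in *POX1*, 1.52 in *BNA3*, 1.88 in *RNR4*, 2.19 in *ERG3*, 2.31 in *SHH4*, 2.56 in *YOR186W* and 2.69 in *YDL218W*. The SE of such a difference had a median of 0.27. *YDL218W* had 1.05, -0.25 and 1.82 on the day 7 arrays, so its day 7 value rested on arrays 1 and 3. *YMR046C* was higher in BR-RF on both days. *NPL3*, *SPO7* and *YOR186W* had no value on array 2 of day 7, so strain and dye cannot be told apart in their day 7 ratios. *SPO7* had 1.16 ± 0.13 on day 7 but 0.25 when loess was run within print blocks (adjusted p = 0.375).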

How the results depend on the processing

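The 343 higher and 406 lower genes became 721 and 770 when only this couple and day was fitted, with its single residual degree of freedom. With the replicate block they were 283 and 356. Same-numbered deviations correlated at -0.17 to 0.12 with the other couples and days. Dye effects enter these deviations, so they cannot settle whether the numbers pair the samples. The counts were 363 and 473 with a dye term, of which 293 and 360 were among the 343 and 406. With loess in print blocks they were 508 and 558, and from the deposited ratios 363 and 449. Leaving out arrays in turn gave 46 to 519 higher and 85 to 570 lower genes, the lowest without array 3, when 1 biological replicate remained and its spread came from other couples. A t test of the 3 arrays against 0 stood in for the fold change and ANOVA of the study's methods. It gave 149 and 218 genes at 1.5-fold and an unadjusted p under 0.05, and 0 and 0 after Benjamini-Hochberg. It covered the 3486 genes on all 3 arrays with the loess used here, so these are not the study's own counts. Limma gave 438 and 496 at that fold and an unadjusted p under 0.05. The 15 day differences became 29 from the deposited ratios (all 15 among them), 2 with median centring, 53 with print-block loess (11 of the 15), 78 with each array as a replicate (13 of the 15), 28 with a dye term (9 of the 15), 2 with the replicate block and 0 to 57 without arrays in turn. The shift of IX left (0.38) was 0.41 with median centring, 0.32 with print-block loess and 0.30 to 0.47 without arrays in turn; that of IX right (0.28) was 0.38, 0.31 and 0.30 to 0.47; that of XV left (0.56) was 0.51 to 0.79 without arrays in turn. The shift of I left, -0.25, was 0.004 without array 1 and -0.505 without array 2. Unsaturated spots only, and only genes on all 3 arrays, both chosen after seeing the data, gave 310 and 369, and 303 and 379. The causes were not tested. Of 212 named genes called, 63 kept the call in every setting. Without array 3, 147 lost it, without array 1, 58, and without array 2, 3. None of them changed direction in any of these settings. All couples share 1 spread, arrays 1 and 2 have weak Cy3 signal, and dim or saturated spots may give compressed ratios.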

Other observations

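Autophagy genes were higher in 5 and lower in 2 of 34. *ATG34* (YOL083W), a receptor of the cytoplasm-to-vacuole pathway, had 1.53, 1.04 and 1.30 on arrays 1, 2 and 3 (1.29 ± 0.15, adjusted p = 0.000785), and *ATG19*, its paralog and neighbour on the left arm of XV, had 0.97 ± 0.20. *ATG8*, the ubiquitin-like protein of the autophagosome, had -1.70, -0.88 and -0.78 (-1.04 ± 0.23). *ATG19* did not pass without array 1 (adjusted p = 0.0519).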
